A study of Capra hircus with 6 samples.

Results

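NF-κB is a family of transcription factors built as pairs from 5 related subunits, encoded by RELA, REL, RELB, NFKB1, and NFKB2. Their transcripts, together with those of 5 genes for proteins that hold NF-κB back or act on it in the nucleus (NFKBIA, NFKBIB, NFKBIE, TNFAIP3, and BCL3), were examined in dermal papilla cells of secondary hair follicles (SHF-DPCs) from the goat. The genes were taken by symbol, and all 10 were found among the 15944 genes listed. SHF-DPCs are the mesenchymal cells at the base of the follicle that grows cashmere. They were primary, wild-type cultures at passage 4 to 7 from the scapular skin of Albas cashmere goats that were 3 years old. The ATRA-treated group received all-trans retinoic acid (ATRA), a form of vitamin A that acts through nuclear receptors, at 100 µM for 24 h (3 libraries), and the control group received culture medium without it (3 libraries).

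In resting cells, inhibitors of the IκB family hold NF-κB pairs in the cytoplasm. The IκB kinase (IKK) complex marks the inhibitors for destruction, and the freed pairs, often RELA with the processed NFKB1 product, enter the nucleus. A slower branch acts through the kinase MAP3K14, which leads to processing of the NFKB2 precursor and releases pairs that contain RELB. Several of the inhibitors, NFKB2, RELB, BCL3, and TNFAIP3 are themselves NF-κB target genes in many cell types. Induction of the inhibitors and of TNFAIP3 makes the circuit self-limiting. Messenger RNA gives no information on where the proteins are or whether the factors bind DNA.

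Levels are given as normalized CPM (counts in each 1e+06 reads), adjusted between libraries by the TMM method of edgeR. Library totals ranged from 35532339 to 38012771 counts. Each of 12588 genes was tested in edgeR (quasi-likelihood test, two-sided), and p-values were adjusted over all of them by the Benjamini-Hochberg method. A gene is called higher or lower with an adjusted p under 0.05. The culture changed widely. Of all genes tested, 40.9% were called higher and 38.7% lower, and in 80.1% the groups did not overlap. All 5 mesenchymal markers examined, from VIM to COL1A1, fell, and their summed level was 47700 to 49673 CPM without ATRA and 2394 to 2498 CPM with it. Of 7 dermal papilla markers, 3 were tested, with 0 called higher and 3 lower. ACTA2 had 6206 to 7098 CPM in the control group and 7.53 to 9.18 CPM with ATRA. The control level was 50.6-fold that with ATRA for VCAN, and 1.45-fold for LEF1. PROM1, the gene of the CD133 antigen used to identify the cells, had 1 count in 1 control library and 0 counts in the others. ALPL and CORIN also had at most 1 count in any library, with or without ATRA. SOX2, which was not tested, went the other way, with 5, 0, and 2 counts in the control libraries and 10, 16, and 9 with ATRA. In bulk RNA, fewer cells of a type and less RNA per cell cannot be told apart.

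Of the 10 genes, 9 passed the expression filter, each of them in the control libraries alone as well as in the ATRA libraries alone. REL did not. Among these 9 genes, 6 were called higher (66.7%, against 40.9% of all genes tested) and 1 lower (11.1%, against 38.7%). The median log₂ fold change (log₂FC) of the 9 genes was 0.68, and that of all genes tested was 0.04. With the thresholds of the study's methods, |log₂FC| above 1 and an unadjusted p under 0.05, 3 genes were higher, RELB, NFKBIE, and BCL3 (33.3%, against 13.7% of all genes tested), and 1 was lower, TNFAIP3 (11.1%, against 17.3%), by the edgeR fit. Those methods name R's t.test, and by that test, run on log2(CPM + 1), 2 were higher and 0 lower past these thresholds, since BCL3 had 0.99 and TNFAIP3 -0.62. The groups did not overlap for 8 of the 9 genes, a share of 88.9% that lies near the 80.1% of all genes. The coefficient of variation within a group lay between 1.21% and 12.7% for the 9 genes, so that the libraries of a group were close to each other beside the larger changes.

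**Figure D1:**
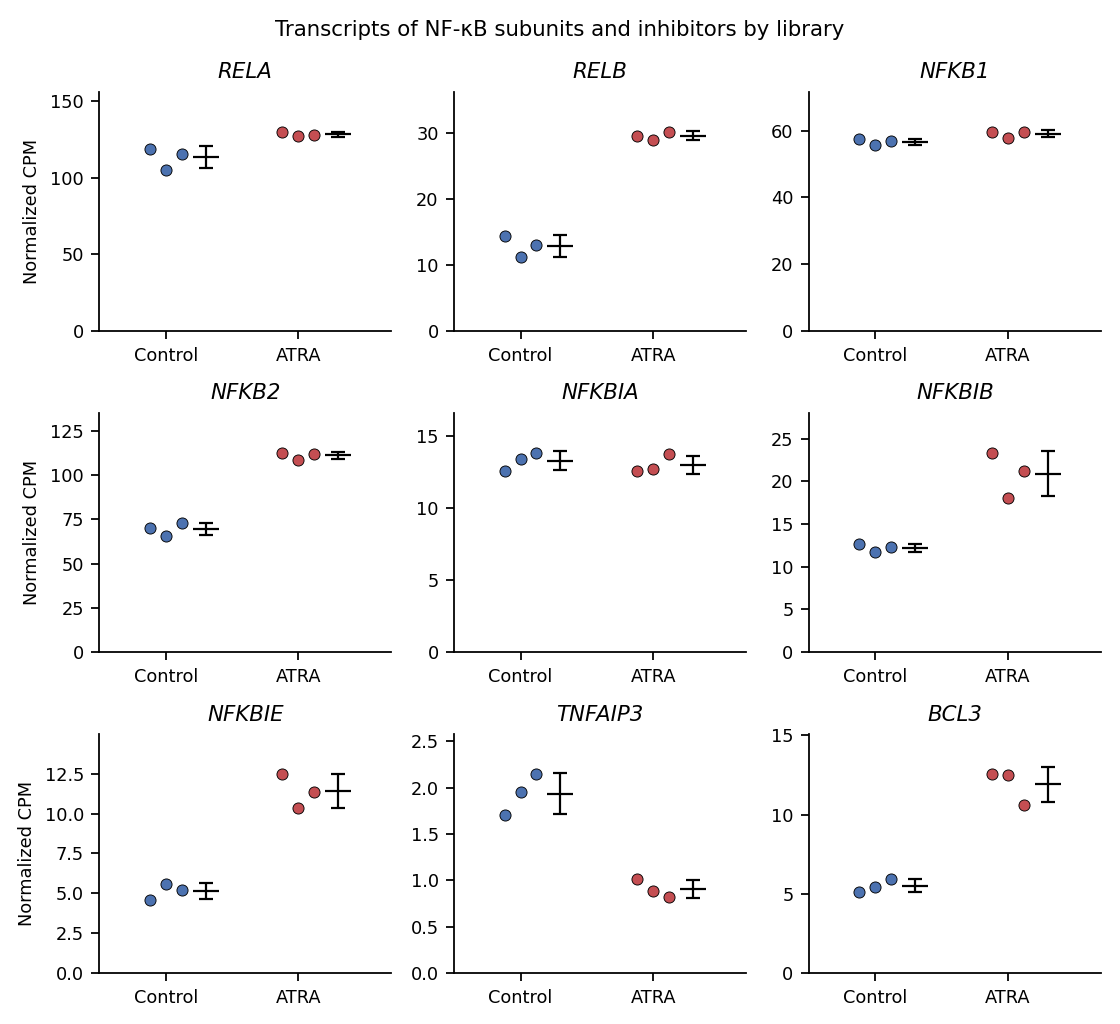
Normalized CPM (y axis, starting at 0) of the 9 tested genes in each control library (blue) and each ATRA library (red), with the mean and SD of the 3 libraries beside the points. RELB, NFKB2, NFKBIB, NFKBIE, and BCL3 lie clearly higher with ATRA, TNFAIP3 lies lower, and the groups of NFKBIA overlap.

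The subunits that carry an activation domain did not move alike. RELA encodes the most widely used activating subunit. Its level was 119, 105, and 116 CPM in the control libraries and 130.1, 127, and 128 CPM in the ATRA libraries. The groups were apart by a small distance, and the log₂FC was 0.18 (standard error 0.0592, adjusted p = 0.00973 from edgeR), a rise of 1.13-fold. The call depended on Control replicate 2, the lowest library. Without it, the log₂FC was 0.12 and the adjusted p was 0.0645, and with R's t.test function, which the study's methods name, the adjusted p was 0.0948.

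RELB encodes the activating subunit that pairs mainly with the NFKB2 product. It had 14.4, 11.2, and 13.1 CPM in the control libraries and 29.7, 28.9, and 30.3 CPM in the ATRA libraries. Every ATRA library was above every control library by a wide margin, and the log₂FC was 1.20 (standard error 0.0913, adjusted p = 7.93e-10). This rise of 2.29-fold, with a 95% interval from 2.01 to 2.62, had the largest estimate of the 9 genes, although its interval overlapped those of NFKBIE and BCL3.

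REL encodes the third activating subunit, which is best known from lymphocytes. Its count was 0 in each control library, and 0, 0, and 1 with ATRA. Both groups were thus below the floor of 3 counts per library, which corresponds to 0.0927 to 0.0967 CPM in the control libraries and 0.0680 to 0.0725 CPM in the ATRA libraries. A difference in REL was not detectable at this depth, and no fold is given.

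The precursor subunits lack an activation domain of their own. NFKB1 encodes the precursor of the usual partner of RELA. Its control libraries had 57.4, 55.6, and 56.8 CPM and its ATRA libraries 59.7, 57.8, and 59.6 CPM. The groups lay side by side without overlap, but the log₂FC was 0.06 (standard error 0.0609, adjusted p = 0.364). The 95% interval ran from -0.0672 to 0.19, so a rise of more than 1.14-fold lies outside it under TMM scaling.

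NFKB2, which encodes the precursor processed in the slower branch, had 70.1, 65.7, and 72.7 CPM in the control libraries. The ATRA libraries had 113, 109, and 112 CPM. The groups were well apart, with a log₂FC of 0.68 (standard error 0.0599, adjusted p = 6.82e-09), or 1.60-fold (95% interval from 1.47 to 1.75). The rise did not reach the 2-fold threshold under TMM scaling, and reached it, with a log₂FC of 1.16, when the counts were divided by library size only.

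The 3 classical IκB genes, whose products bind NF-κB pairs in the cytoplasm, parted from each other. NFKBIA encodes IκBα, the inhibitor that NF-κB itself induces within minutes and that ends a short pulse of activity. It had 12.6, 13.4, and 13.8 CPM in the control libraries and 12.6, 12.7, and 13.7 CPM in the ATRA libraries. The groups overlapped, and the log₂FC was -0.0323 (95% interval from -0.23 to 0.16, adjusted p = 0.755).

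NFKBIB encodes IκBβ, an inhibitor that responds more slowly. It had 12.7, 11.7, and 12.3 CPM in the control libraries and 23.3, 18.1, and 21.2 CPM in the ATRA libraries. All ATRA libraries were higher, with ATRA replicate 2 the lowest of them. The log₂FC was 0.77 (standard error 0.0997, adjusted p = 1.11e-06), or 1.71-fold.

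NFKBIE encodes IκBε, which restrains RELA and REL pairs and is itself induced late by NF-κB. Its level was 4.61, 5.60, and 5.23 CPM in the control libraries and 12.5, 10.4, and 11.4 CPM with ATRA. The lowest ATRA library lay well above the highest control library, and the log₂FC was 1.15 (standard error 0.120, adjusted p = 7.24e-08), or 2.21-fold (95% interval from 1.86 to 2.64). NFKBIE had the largest estimate among the IκB genes.

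BCL3 encodes a nuclear IκB protein that does not retain NF-κB in the cytoplasm but sits on the processed NFKB1 and NFKB2 products at DNA. It had 5.12, 5.47, and 5.95 CPM in the control libraries and 12.6, 12.5, and 10.6 CPM in the ATRA libraries. The groups were far apart, with a log₂FC of 1.11 (standard error 0.116, adjusted p = 6.85e-08), or 2.16-fold. The estimate fell just short of 2-fold, at a log₂FC of 0.99, on the log2(CPM + 1) scale. The RefSeq table of goat genes places a long noncoding RNA gene across part of BCL3, and whether the counting used strand is not given in the sources used here. It also places 8 protein-coding genes between BCL3 and RELB on chromosome 18. Of these, 5 were tested, with 4 called higher and 0 lower, against 40.9% and 38.7% of all genes tested. Their median log₂FC was 0.74, and whether the location bears on BCL3 and RELB was not tested.

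TNFAIP3 encodes a ubiquitin-editing enzyme that switches off signaling above the IKK complex and is among the best-known feedback genes of NF-κB. It was measured on 53, 63, and 69 counts in the control libraries and 44, 39, and 34 counts in the ATRA libraries, which makes it the least precise of the 9 genes. In CPM the control libraries had 1.71, 1.95, and 2.15, and the ATRA libraries 1.02, 0.884, and 0.822. The ATRA libraries were lower in CPM and also in unscaled counts. The log₂FC was -1.09 (standard error 0.234, adjusted p = 0.000356), and the control level was 2.13-fold that with ATRA. The 95% interval of the log₂FC, from -1.58 to -0.60, spans the 2-fold threshold. TNFAIP3 was thus the gene that fell while the IκB genes NFKBIB and NFKBIE rose.

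**Figure D2:**
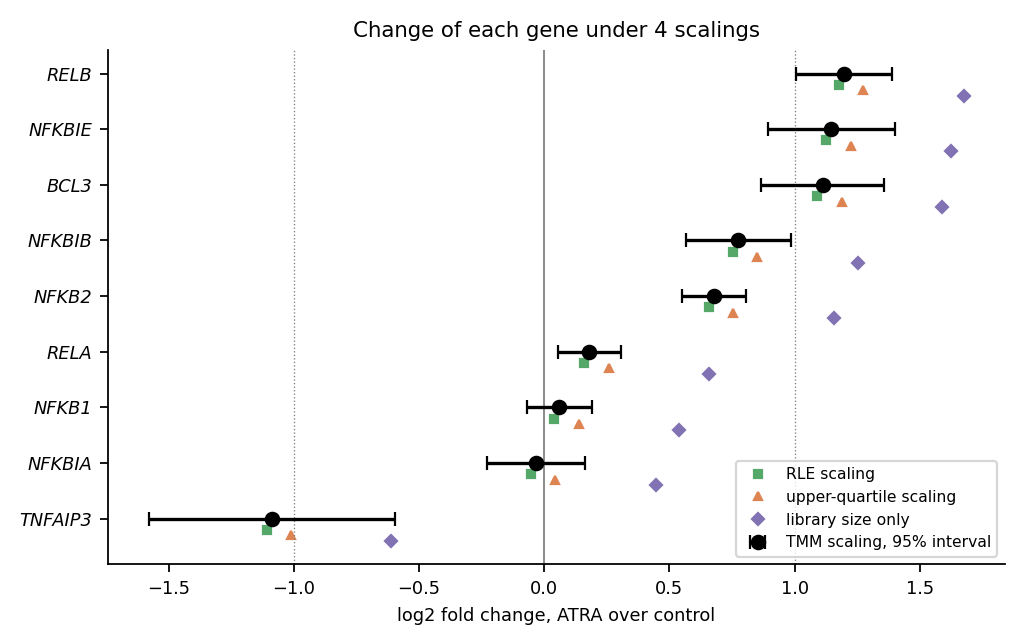
The log₂FC of each of the 9 genes (x axis, ATRA over control; dotted lines at 2-fold) with its 95% interval under TMM scaling (black) and its value under 3 other scalings. Dividing by library size only moves every gene to the right by a similar distance; 5 genes then lie above 2-fold, and NFKBIA changes sign, as it also does with upper-quartile scaling.

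The scaling sets where 0 lies. Library size only moved the median log₂FC of all genes tested from 0.04 to 0.52, and upper-quartile scaling moved it to 0.11. Under library size only, NFKBIA had a log₂FC of 0.45 and NFKB1 of 0.54, both called higher (adjusted p = 0.000267 and 3.47e-07), and RELA had 0.66. With upper-quartile scaling, NFKBIA had 0.0443 (adjusted p = 0.663) and NFKB1 had 0.14 and was called higher (adjusted p = 0.0449). RELB, NFKB2, NFKBIB, NFKBIE, and BCL3 were higher and TNFAIP3 lower under each of the 4 scalings tried, with TNFAIP3 at -0.61 under library size only.

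A share of the reads within a library does not depend on the scaling between libraries. The shares below compare a gene with itself between groups. They are shares of reads and were not divided by transcript length, so they do not rank the genes by abundance. RELB took 5.52%, 4.72%, and 5.08% of the reads on the 5 subunit genes in the control libraries and 8.93%, 8.97%, and 9.18% in the ATRA libraries. NFKB2 rose in the same way from 27.5% ± 0.652 to 33.9% ± 0.157 (SD, n = 3 each). The shares of RELA and NFKB1 were lower with ATRA, at 44.9% ± 0.683 against 39.1% ± 0.342 for RELA and 22.5% ± 0.801 against 18.0% ± 0.0798 for NFKB1 (SD, n = 3 each). The groups did not overlap for any of these 4 genes, with the shares of RELB and NFKB2 above and those of RELA and NFKB1 below the control values. In CPM, the groups did not overlap for 80.1% of all genes tested. The shares within a library have a fixed total, so a rise of some lowers the others. The lower shares of RELA and NFKB1 are thus not falls in level, where the log₂FC was 0.18 and 0.06.

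For each 100 reads on RELA, RELB had 11.4 ± 0.719 reads without ATRA and 23.1 ± 0.529 with it (SD, n = 3 each), a ratio of 2.03. For each 100 reads on NFKB1, NFKB2 had 123 ± 4.97 and 188 ± 0.406 reads (SD, n = 3 each), a ratio of 1.53. Both pairs of groups were apart. With 3 libraries against 3, the exact permutation test (two-sided) gave p = 0.1 for each of these quantities, the smallest p the design allows, and 0.122 after adjustment over the 11 quantities computed.

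Among reads on the 3 classical IκB genes, the share of NFKBIA was 43.3% ± 1.06 in the control group and 28.8% ± 2.53 with ATRA. NFKBIE took 16.8% ± 1.39 and 25.2% ± 0.641, and NFKBIB 39.9% ± 2.25 and 46.0% ± 2.12 (SD, n = 3 each). The groups did not overlap for any of the 3 genes (exact permutation test, two-sided, p = 0.1 each). In CPM, this held for 80.1% of all genes tested. These shares also have a fixed total, and the level of NFKBIA itself was not called changed (log₂FC -0.03). The sum of the IκB reads per 100 subunit reads, by contrast, was 11.4, 12.9, and 12.1 in the control libraries and 14.6, 12.7, and 14.0 in the ATRA libraries. These values overlapped (exact permutation test, two-sided, p = 0.2), with ATRA replicate 2 below the highest control library. The mean was 1.13 times that of the control group.

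**Figure D3:**
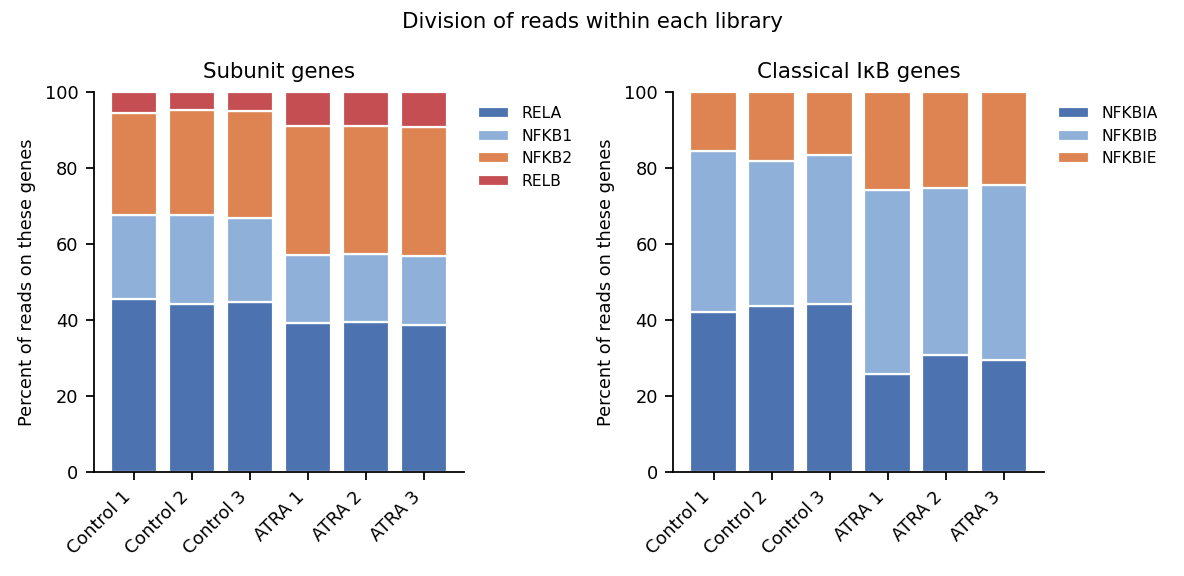
Percent of reads in each library that fell on each of the subunit genes (left; REL, with at most 1 count, is not drawn) and on each classical IκB gene (right), with each bar adding up to the reads on those genes. RELB rises from about 5% to 9% of subunit reads and NFKBIA falls from 43.3% to 28.8% of IκB reads, with little spread between libraries of a group.

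Other genes of the pathway were read from 5 lists written from general knowledge of it, with earlier results of these data known. The shares of these lists are thus not independent of the data. Of 22 genes of the IKK complex and its upstream activators, 8 were called higher (36.4%) and 8 lower (36.4%), shares near those of all genes, and the list median was -0.13. None passed 2-fold. Within the IKK complex, the scaffold subunit gene IKBKG had a log₂FC of 0.49 (adjusted p = 1.14e-06), the kinase gene CHUK -0.24 (adjusted p = 0.00507), and the kinase gene IKBKB -0.0731 (adjusted p = 0.368). Under library size only, which moves all genes up, CHUK had 0.24. MAP3K14, the kinase of the slower branch, had a log₂FC of -0.57 (adjusted p = 0.000103), while the transcripts of RELB and NFKB2 rose. The branch works on the NFKB2 protein, so these transcript levels do not show its activity. Under library size only, MAP3K14 had -0.0925 (adjusted p = 0.431) and was not called. BTRC, which encodes the ligase component that recognizes marked IκB, rose with a log₂FC of 0.66 (adjusted p = 4.74e-08).

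The atypical nuclear IκB genes both rose, NFKBIZ with a log₂FC of 0.44 (adjusted p = 7.56e-05) and NFKBID with 0.62 (adjusted p = 0.00790). BCL3, the third nuclear IκB gene examined, had a log₂FC of 1.11, and whether it changed more than these was not tested.

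Of 14 other negative regulators, 13 were tested, of which 7 were called higher (53.8%, against 40.9% of all genes tested) and 4 lower (30.8%, against 38.7%), with a median log₂FC of 0.31. PDLIM2, which encodes a ligase that helps to degrade nuclear RELA, had 52.6 ± 3.49 CPM in the control group and 5.32 ± 1.13 CPM with ATRA (SD, n = 3 each). The log₂FC of -3.31 (adjusted p = 1.56e-14) was the largest fall in the list. ZC3H12A, which encodes an RNase that degrades cytokine transcripts, rose with a log₂FC of 1.11 (adjusted p = 2.73e-08). The deubiquitinase genes CYLD and OTUD7B rose with a log₂FC of 0.86 and 0.76 (adjusted p = 9.46e-09 and 3.23e-09). OTULIN, also a deubiquitinase gene, was called lower, with a log₂FC of -0.24 (adjusted p = 0.0186), and had 0.24 under library size only. The partners of the TNFAIP3 protein did not move together, with a log₂FC of 0.40 for TAX1BP1, -0.67 for ITCH, -0.46 for RNF11, and -0.11 for TNIP1. The first 3 were called and TNIP1 was not (adjusted p = 0.157), and RNF11 and TNIP1 changed sign under library size only.

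Of 18 genes for cytokines and surface proteins known as NF-κB targets, 14 had a value. CCL2, IL1B, TNF, and VCAM1 had no entry under these symbols. Tested were 11 genes, of which 8 were called higher (72.7%, against 40.9% of all genes tested) and 1 lower (9.09%, against 38.7%). The median log₂FC of the 11 genes was 1.50. IL1A, CX3CL1, PTX3, and CD83 passed the expression filter only through their ATRA libraries, so a rise was a condition of their being tested. Among the 7 genes that passed it in both groups, 4 were called higher (57.1%) and 1 lower (14.3%). For all genes that passed in both groups, these shares were 39.8% and 39.5%. The median log₂FC of the 7 genes was 0.30. Of all genes tested, 689 passed through the ATRA libraries alone, and the median of the 11501 that passed in both groups was 0.0151. IL6 had 15.0, 15.8, and 14.4 CPM in the control libraries and 98.5, 94.8, and 103 CPM in the ATRA libraries. CXCL8, which encodes a neutrophil-attracting chemokine, had 16.7, 15.5, and 14.4 CPM and 231, 229, and 209 CPM. Both genes rose with the groups far apart, with a log₂FC of 2.71 (standard error 0.0712, adjusted p = 8.37e-17) for IL6 and 3.84 (standard error 0.0728, adjusted p = 8.20e-19) for CXCL8. IL1A, an alarm cytokine that had 8 to 9 counts in each control library, rose from 0.272 ± 0.0223 to 17.1 ± 1.81 CPM (SD, n = 3 each), with a log₂FC of 5.96 (standard error 0.184, adjusted p = 9.45e-16). The chemokine gene CCL5 rose at a low level, with a log₂FC of 1.26 (adjusted p = 0.000470). CD40, which encodes a receptor that feeds the slower branch, was lower, with a log₂FC of -1.58 (adjusted p = 2.92e-07). ICAM1 and CSF1, also well-known targets, were not called (log₂FC -0.14 and -0.0167, adjusted p = 0.549 and 0.809).

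Markers of leukocytes, which also make these cytokines, were at a summed 9.61 to 13.2 CPM in the control libraries and 41.6 to 44.4 CPM in the ATRA libraries. Of the 8 markers, 6 had a value and 3 were tested, of which CD14 and CD68 were called higher. CD14 and CD68 made up most of the sum. The defining markers ITGAM and CD3E had 0 to 2 and 0 to 5 counts per library. Endothelial and keratinocyte markers also moved. The 4 endothelial markers summed to 0.322 to 0.556 CPM without ATRA and 5.24 to 8.03 CPM with it. The rise of the sum lay in PECAM1, which was at 0 counts throughout the control group and at 242, 340, and 206 counts after ATRA. VWF was not called and CDH5 had at most 1 count. KDR, which did not pass the filter, went the other way, with 5, 6, and 10 counts in the control libraries and 2, 1, and 0 with ATRA. The keratinocyte markers summed to 3.11 to 4.92 CPM and 5.26 to 5.95 CPM. Of these, KRT10 was called higher, whereas KRT5 had 2 to 7 counts in the control libraries and 0 with ATRA. The part of such cells in the cytokine values was not tested.

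Of 16 survival and other intracellular targets, 15 were tested, with 7 called higher (46.7%) and 6 lower (40.0%), shares near the 40.9% and 38.7% of all genes tested. The median log₂FC was 0.10. MMP9 and TNFAIP2 passed the filter only through their ATRA libraries, and MMP3 only through its control libraries. Among the 12 genes that passed it in both groups, 5 were called higher and 5 lower (41.7% each), and the median log₂FC was -0.0216. The shares of all genes that passed in both groups were 39.8% and 39.5%. IER3, an early response gene, had 135 ± 6.10 CPM in the control group and 673 ± 64.4 CPM with ATRA (SD, n = 3 each). It rose with a log₂FC of 2.32 (adjusted p = 9.46e-16). PTGS2, the inducible enzyme of prostaglandin synthesis, rose with a log₂FC of 1.11 (adjusted p = 9.19e-07). GADD45B, which restrains stress kinase signaling, was lower, with a log₂FC of -2.56 (adjusted p = 1.14e-15). PLAU, the urokinase gene, had a log₂FC of -1.93 (adjusted p = 4.89e-16) and went from 334 ± 5.09 to 87.5 ± 4.21 CPM (SD, n = 3 each). BIRC3, a ligase gene of the slower branch and a target of NF-κB, rose with a log₂FC of 0.81 (adjusted p = 1.34e-08), whereas SOD2, a mitochondrial antioxidant gene, had a log₂FC of -0.49 (adjusted p = 1.51e-06) and -0.0154 (adjusted p = 0.830), not called, under library size only.

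**Figure D4:**
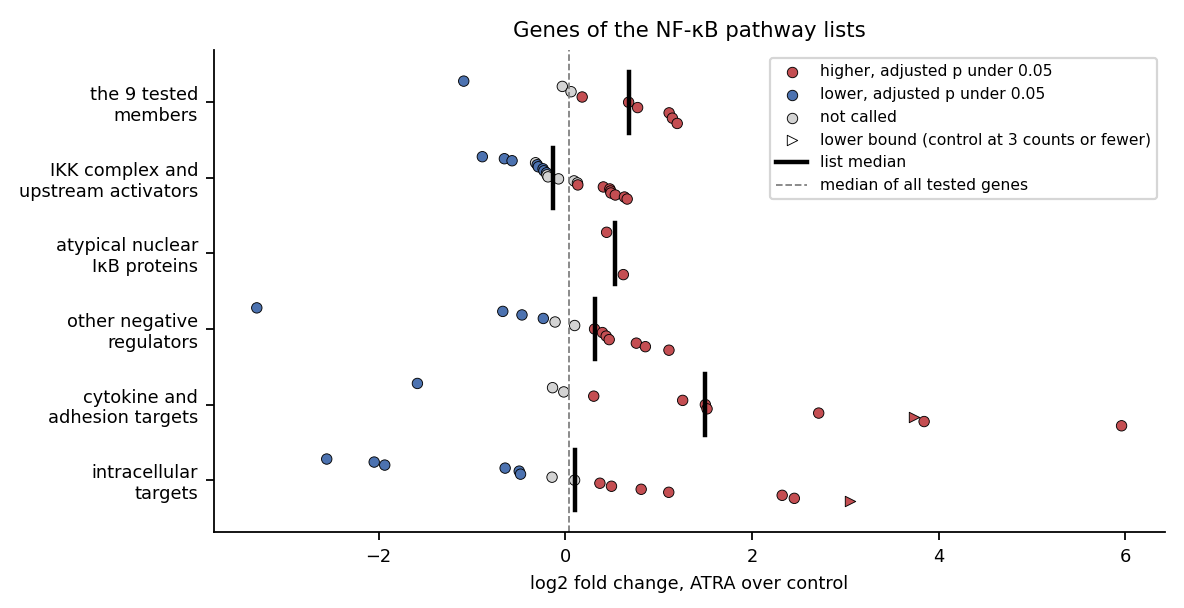
The log₂FC (x axis, ATRA over control) of each tested gene of the 10 under study and of the 5 pathway lists, colored by the call, with list medians (black bars) and the median of all genes tested (dashed line, 0.04). Triangles mark CX3CL1 and TNFAIP2 at their lower bounds, since their control libraries had 3 counts or fewer; the median bar of the cytokine list, at 1.50, includes the 4 genes that passed the filter only through ATRA.

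The KEGG pathway named for NF-κB signaling in the deposited annotation held 84 genes, among them 6 of the 10 genes described here. Of its 66 tested genes, 29 were called higher (43.9%) and 18 lower (27.3%), with a median log₂FC of 0.09. The share called higher lay near the 40.9% of all genes tested, and the share called lower lay below the 38.7%. Of the 66 genes, 4 passed the expression filter only through their ATRA libraries, so a rise was a condition of their being tested. Among the 62 that passed it in both groups, 25 were called higher (40.3%) and 18 lower (29.0%), with a median log₂FC of 0.06. Of all genes that passed in both groups, 39.8% were called higher and 39.5% lower. Under library size only, 50 of the 66 genes were called higher and 10 lower. That scaling moved the median log₂FC of all genes tested to 0.52. The share of all genes called under it is not given here, so these counts are not read as a rise of the pathway.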

How the data were processed

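According to the methods, RNA from SHF-DPCs of 3 goats was enriched for mRNA with oligo(dT) beads, with read cleaning by fastp and TrimGalore. The submitters' processing notes list HISAT2, featureCounts, and DESeq2. The genome build, annotation, and strand setting are not given in the sources used here. The authors deposited whole-number read counts per gene, not normalized. Samples were grouped by the treatment label.

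The expression filter of edgeR kept 12588 of 15944 genes, which were scaled by TMM and tested with the quasi-likelihood test, all 6 libraries, no covariate. The standard error is |log₂FC| over the square root of F. Shares were compared by an exact permutation test. The 10 genes and the lists were chosen with earlier results of these data known. Of each list, called genes with |log₂FC| above 1 and a mean of at least 1 CPM are named, at most 4 in each direction. Other list genes were picked for the text with their values in view. Gene names were matched to RefSeq symbols (ARS1.2; 15944 of 15944). The RefSeq lengths are genomic spans and were not used, so shares are of reads, not reads per kilobase. No sequence is printed. Alternatives were other scalings, DESeq2, R's t.test function, other filters and thresholds, a replicate block, and each library left out. The tests were run on simulated data with known changes in 198 of 12482 genes, up and down alike. Of these, edgeR recovered 194, DESeq2 190, and R's t.test 77. Far more genes were called in the real data, so the simulation cannot show how well the scaling holds there. Versions were R 4.3.3, edgeR 4.0.16, DESeq2 1.42.0, Python 3.11.15, and SciPy 1.17.1. Replicates of a group differed by more than sampling noise (chi-square divided by its degrees of freedom, 5.01 to 18.4).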

Additional observations from a re-analysis of the deposited data

How the results depend on the processing

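The calls of RELB, NFKB2, NFKBIB, NFKBIE, BCL3, and TNFAIP3 held under each scaling, test, filter, and left-out library tried. NFKBIA had a log₂FC of 0.0443 with upper-quartile scaling and 0.45 with library size only, in place of -0.0323. NFKB1 was called with upper-quartile scaling (0.14) and library size only (0.54). Leaving out each library in turn gave 5 to 6 genes called higher and 1 lower.

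Past 2-fold, there were 5 genes higher and 0 lower with library size only, 2 higher and 0 lower with R's t.test on log2(CPM + 1), where BCL3 had 0.99, and 0 in each direction with |log₂FC| above 2. With library size only, 17 genes of the IKK list were called higher and 1 lower, 2 other negative regulators lower, 3 intracellular targets lower, and, in the KEGG pathway, 50 higher and 10 lower. R's t.test gave 2 other negative regulators lower. These shifts go with the median of all genes, 0.52 under library size only. The share of all genes called under that scaling is not given here. Computed from group means of CPM + 1, the log₂FC of TNFAIP3 was -0.62 and that of BCL3 0.99. In an alternative chosen after seeing the data, only genes that passed the filter in both groups were kept, and 4 genes of the cytokine and surface protein list were called higher, in place of 8, with a median log₂FC of 0.30 in place of 1.50.

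The replicate number of the titles was tried as a block. Deviations from the group means correlated at 0.0892, 0.0299, and -0.0764 between same-numbered libraries of the 2 groups. Control replicates 1 and 2 correlated best with their own number, and Control replicate 3 with ATRA replicate 2 (0.1). According to the methods, cells of 3 animals were treated, and whether the numbers mark the animals is not stated. These small correlations do not settle it, and the main fit did not treat the numbers as pairs. With the block, 6 genes were called higher and 1 lower, as without it.

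TNFAIP3, on 34 to 69 counts per library, is the least precise value, and REL is below the floor in both groups.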
